A study of Homo sapiens with 8 samples.

Results

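Distal sites that carried peaks of both H3K23su (succinylation of lysine 23 of histone H3) and H3K27ac (acetylation of lysine 27) in 5-FU-resistant HCT15 cells, each in a region where the parental cells had no peak of that mark, are described here. They were chosen by the peaks themselves. Peaks that overlapped or touched were merged within each mark over its 4 lists, a region was called FR-only when both HCT15-FR lists and no HCT15-Pa list had a peak in it, and an FR-only H3K23su region was kept when it overlapped an FR-only H3K27ac region by 1 bp or more and its midpoint lay over 1 kb from every protein-coding transcription start site (TSS). Of 122500 H3K23su regions in all, 9735 were FR-only (7.95%), and of 133786 H3K27ac regions 12147 were FR-only (9.08%). In 3487 FR-only H3K23su regions an FR-only H3K27ac region overlapped, 255 of these lay within 1 kb of a TSS, and the other 3232 are the gained sites. They make up 37.5% of the 8625 distal FR-only H3K23su regions. Because presence and absence of peaks chose them, the gain itself is not a finding, and their peak scores are given as a description.

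The 8 libraries were made by CUT&Tag, in which an antibody directs a transposase to chromatin, from HCT15, an established human colorectal cancer line. The parental line (HCT15-Pa) was labelled as treated with DMSO, and the line resistant to 5-fluorouracil (5-FU), HCT15-FR, as treated with 5-FU at 20 μg/ml. According to the methods the resistant line was kept in that dose and then for 3 days in medium without drug. Each line had 2 libraries for each mark. All libraries come from 1 parental line and 1 resistant line, and nothing says that replicates were separate cultures, so the spread between them may be technical. The lists held between 65364 and 76676 peaks per library, they give no read depth, and the lack of a peak means only that none was detectable under the settings used to call peaks. The HCT15-FR lists covered more sequence than the HCT15-Pa lists, 39.4 and 40.0 Mb against 33.0 and 33.5 Mb for H3K23su and 46.3 and 46.6 Mb against 38.8 and 39.5 Mb for H3K27ac, and the part of this in the number of gained sites was not tested. Of 12 promoters of colon epithelial genes, 10 carried an H3K27ac peak in all 4 libraries, among them EPCAM, CDH1, KRT8, CDX2 and VIL1, while KRT20 and CDX1 had one in some. Of 11 promoters of genes of other cell types, 6 had none, 3 had one in some libraries, and CD14 and COL1A1 had one in all 4.

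H3K27ac marks active promoters and enhancers, and away from start sites it is the usual sign of an enhancer in use. Succinylation puts a larger, negatively charged acyl group on lysine and draws on succinyl-CoA, a metabolite of the citric acid cycle. Enhancers are short stretches where transcription factors bind, and the factors leave a trace in the sequence. AP-1, a dimer of FOS and JUN proteins at the end of the RAS-MAPK pathway, binds TGACTCA. Forkhead (FOX) factors bind TGTTTAC, and GATA factors bind AGATAAG, and members of both families open closed chromatin in gut epithelium.

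The sequences below show what such sites look like. Each runs 100 bases to either side of the midpoint of a gained site, read from the forward strand of hg19, in lower case, with every exact match to the AP-1, FOX or GATA letters on either strand in capitals. The NBPF3 and ABI2 sites are 2 of the 12 gained sites whose weakest peak ranks highest in its list. The RAMP1 and FOXO1 sites lie in introns of genes the study discusses. The other 5 were picked after their matches were known, as strong sites with given matches, to show how the motifs sit. They are not in every case the strongest sites with those matches.
NBPF3 intron, chr1:21791686-21791886: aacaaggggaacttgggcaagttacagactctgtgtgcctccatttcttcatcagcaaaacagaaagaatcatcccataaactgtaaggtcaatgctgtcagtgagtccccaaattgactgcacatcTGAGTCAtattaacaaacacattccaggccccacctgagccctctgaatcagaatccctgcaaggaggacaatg
nearest to CD200R1L, chr3:112470973-112471173: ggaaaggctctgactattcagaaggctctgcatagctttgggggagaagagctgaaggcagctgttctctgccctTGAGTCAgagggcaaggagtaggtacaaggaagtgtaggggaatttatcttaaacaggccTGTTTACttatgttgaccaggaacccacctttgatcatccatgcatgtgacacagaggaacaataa
TMEM120B intron, chr12:122203537-122203737: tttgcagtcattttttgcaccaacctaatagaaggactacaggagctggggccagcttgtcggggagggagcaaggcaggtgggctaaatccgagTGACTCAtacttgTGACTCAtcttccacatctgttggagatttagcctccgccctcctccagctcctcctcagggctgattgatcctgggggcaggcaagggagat
RAMP1 intron, chr2:238775079-238775279: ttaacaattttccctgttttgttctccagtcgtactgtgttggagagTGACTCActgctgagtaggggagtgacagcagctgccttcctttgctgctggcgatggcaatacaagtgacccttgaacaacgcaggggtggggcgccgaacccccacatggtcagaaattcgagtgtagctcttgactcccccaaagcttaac
nearest to RALA, chr7:39801517-39801717: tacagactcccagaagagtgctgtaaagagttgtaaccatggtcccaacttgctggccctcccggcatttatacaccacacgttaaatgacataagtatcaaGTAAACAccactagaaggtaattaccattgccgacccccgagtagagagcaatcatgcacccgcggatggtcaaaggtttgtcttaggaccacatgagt
nearest to SLITRK6, chr13:85888079-85888279: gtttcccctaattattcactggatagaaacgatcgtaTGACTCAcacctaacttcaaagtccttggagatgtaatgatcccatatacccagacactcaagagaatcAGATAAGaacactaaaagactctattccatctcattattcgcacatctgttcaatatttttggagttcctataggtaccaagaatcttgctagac
AAK1 intron, chr2:69895152-69895352: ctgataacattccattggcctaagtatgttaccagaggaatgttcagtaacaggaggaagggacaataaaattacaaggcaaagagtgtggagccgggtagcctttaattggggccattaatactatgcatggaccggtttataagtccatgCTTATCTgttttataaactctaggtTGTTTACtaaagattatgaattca
ABI2 intron, chr2:204217582-204217782: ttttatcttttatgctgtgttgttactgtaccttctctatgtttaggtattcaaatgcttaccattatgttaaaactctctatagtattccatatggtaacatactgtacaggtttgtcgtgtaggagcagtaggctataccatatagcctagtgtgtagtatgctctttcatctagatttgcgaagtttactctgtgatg
FOXO1 intron, chr13:41159747-41159947: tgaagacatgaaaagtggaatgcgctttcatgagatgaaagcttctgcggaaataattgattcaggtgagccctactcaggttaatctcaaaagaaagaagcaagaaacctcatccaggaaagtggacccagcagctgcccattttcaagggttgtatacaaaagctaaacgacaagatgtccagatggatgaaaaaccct

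The NBPF3, CD200R1L, TMEM120B and RAMP1 windows hold AP-1, TMEM120B with 2 copies in the same orientation and CD200R1L together with FOX. The window nearest to RALA holds FOX, that nearest to SLITRK6 AP-1 and GATA, and that in AAK1 FOX and GATA. The ABI2 and FOXO1 windows hold none of the 3, as do most gained sites: within 200 bp of the midpoint, 43.5% of the 3232 sites (1406; 95% exact interval 41.8 to 45.2%) had at least 1 match to AP-1, FOX or GATA, and all 3 motifs together were found at 11 sites. Over all distal H3K23su regions the share with at least 1 was 24.9%.

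At the gained sites the peaks were of middling strength. The score is the −log10 P value that MACS2 gave a peak, and its percentile is the share of the same list with an equal or lower score. The median H3K23su score was 4.55 in HCT15-FR replicate 1 and 4.59 in replicate 2, at percentiles 49.7 and 50.3. The median H3K27ac score was 4.98 and 5.09, at percentiles 54.1 and 56.0. Distal regions with both marks in all 4 libraries each (12576 regions, here called constant) had a median H3K23su score of 5.53 in both lists, at percentiles 71.1 and 70.6. Highest scores at gained sites were 12.9 and 12.5 for H3K23su and 18.4 and 22.4 for H3K27ac, against list maxima of 260 and 265 for H3K23su and 864 and 950 for H3K27ac.

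**Figure D1:**
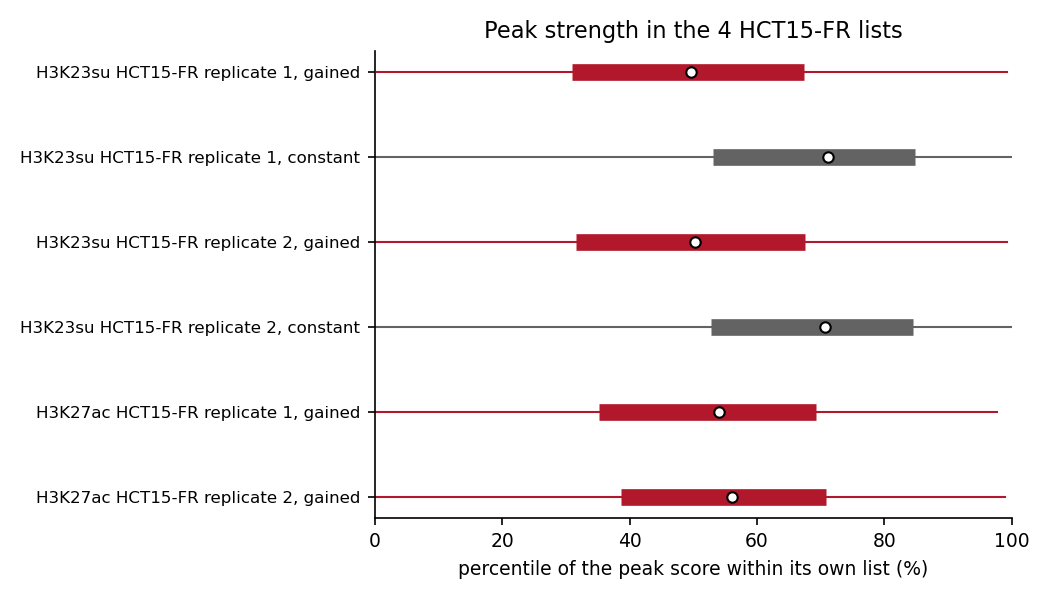
Percentile of the peak score within its own list, for the gained sites (red) in the 4 HCT15-FR lists and for constant distal regions (grey) in the 2 H3K23su lists. Thin lines run from the lowest to the highest value, thick bars from the first to the third quartile, and open circles are medians, which lie at 49.7, 50.3, 54.1 and 56.0 for the gained sites and at 71.1 and 70.6 for the constant regions.

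Sites strong in one list were not always strong in the next. Across the 3232 sites, the Spearman correlation of scores between replicates was 0.329 for H3K23su and 0.629 for H3K27ac, and between marks of the same replicate number 0.193 and 0.249. These are given as a description, since all sites share the libraries and were selected on the same scores. The weakest of a site's 4 percentiles had a median of 28.3, it was at least 50 at 579 sites (17.9%) and at least 75 at 64 sites (1.98%), and it was under 10 at 471 sites (14.6%). Where sites are compared below, the strongest is the one whose weakest percentile is highest, and another site can score higher in single lists. The lowest scores among the gained sites were 3.05 and 3.03 for H3K23su and 2.92 and 2.94 for H3K27ac, close to the lowest scores of their lists.

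The rule itself required the marks to overlap by 1 bp or more, so how closely they lay together is given as a description. A gained H3K23su region had a median width of 614 bp and its H3K27ac region 688 bp, and the midpoints differed by a median of 93.0 bp and by at most 200 bp at 2580 sites (79.8%). A median of 88.8% of the H3K23su region was covered, all of it at 1037 sites (32.1%), and 2944 sites (91.1%) were covered over at least 50% of their length. The smallest overlap of the marks was 5 bp, at a site nearest to GADD45A, and the closest distal FR-only H3K23su region that is no member lay 4 bp from an FR-only H3K27ac region. On the TSS side, the member nearest to the limit lay 1009 bp from a start of AREL1, and the nearest candidate left out lay 998 bp from a start of KANK1. Some neighbouring sites share an H3K27ac region, since the 3232 sites overlapped 3209 FR-only H3K27ac regions, 26.4% of all FR-only H3K27ac regions. Only 24 sites touched a peak of the other mark in an HCT15-Pa list. The nearest HCT15-Pa peak of either mark lay a median of 4960 bp away, within 1 kb at 440 sites (13.6%), and over 10 kb away at 962 sites (29.8%). The nearest constant distal region lay a median of 45792 bp away.

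The median distance to the nearest protein-coding TSS was 20372 bp (quartiles 7804 and 55306 bp), against 31147 bp at the 997 distal sites that carried both marks in the HCT15-Pa lists only, called lost sites. It was 13865 bp at 1267 distal H3K23su gains on H3K27ac regions present in all 4 libraries, and 14444 bp at 1562 distal H3K23su gains with no H3K27ac peak in any library. By midpoint, 1802 gained sites (55.8%) lay in introns of protein-coding genes, 107 (3.31%) in exons, 441 (13.6%) in noncoding genes and 882 (27.3%) between genes. Over all 100978 distal H3K23su regions the median distance was 15244 bp and the intron share 61.1%, so the gained sites lay farther from a TSS and less often in an intron than distal regions as a whole, with no test of either. The intron share was 38.8% at lost sites (odds ratio 1.99, interval at 95% from 1.72 to 2.30, adjusted p = 1.24e-20 over 3 comparisons by Fisher's exact test over regions, two-sided). It was 50.7% at H3K23su gains on constant H3K27ac (odds ratio 1.23, 1.08 to 1.40, Fisher's exact adjusted p = 0.00220) and 73.2% at H3K23su gains without H3K27ac (odds ratio 0.462, 0.405 to 0.527, adjusted p = 1.84e-31). Gained sites were thus more often intronic than lost sites and less often than the H3K23su gains without an H3K27ac peak. Regions are not replicates, so these tests describe the 8 libraries.

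Most gained sites had no other gained site close by. Another lay within 10 kb of 272 sites (8.42%). The same share was 4.81% at lost sites, 4.97% at gains on constant H3K27ac, 2.94% at gains without H3K27ac and 24.4% at constant regions, and these kinds differ in number, which moves such a share. In a grouping added after the data were seen, joining sites less than 12.5 kb apart gave 3046 groups, of which 2875 held 1 site, 158 held 2 and 13 held 3 or more. The groups with the most sites held 4, one over 36909 bp at chr1:22078410-22115318 near USP48, a deubiquitinase, and the other over 17691 bp at chr11:116873181-116890871 in SIK3. As a share of distal H3K23su regions, gained sites ranged from 2.49% on chromosomes 13 and 17 to 3.95% on chromosome 4 among the autosomes and X. Of the 220 distal regions on chromosome Y none was a gained site, and 34 (15.5%) were lost sites. On the other chromosomes lost sites made up 0.611% (chromosome 3) to 2.00% (chromosome 13) of distal regions.

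Base composition set the gained sites apart from the lost ones. The median GC content within 200 bp of the midpoint was 44.9% at gained sites, 53.4% at lost sites, 51.9% at gains on constant H3K27ac, 46.4% at gains without H3K27ac and 50.1% over all distal regions. AT-rich motifs such as those of FOX, GATA, TCF/LEF and CDX factors turn up more often in AT-rich sequence, and G-rich ones such as KLF less often. The motif tests of gained sites against lost sites, gains on constant H3K27ac and gains without H3K27ac were therefore also made within GC strata. The strata were 5 percentage points wide and pooled by the Mantel-Haenszel method. The other motif counts below, including those by library, around midpoints and in H3K27ac regions, were not stratified. The 12 motifs were exact strings searched on both strands within 200 bp of the midpoint, 36 two-sided Fisher's exact tests over regions were adjusted together (Benjamini-Hochberg, threshold 0.05; the stratified values likewise), and an odds ratio above 1 means more sites with a match among the gained ones.

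AP-1 was found at 807 gained sites (25%, 95% exact interval 23.5 to 26.5%), 727 of them with 1 match, 74 with 2 and 6 with 3 or more. The share was 15.8% at lost sites (odds ratio 1.77, 1.46 to 2.13, Fisher's exact adjusted p = 5.65e-09), and the odds ratio of 1.37 within GC strata passed too. It was 13.4% at H3K23su gains without H3K27ac (odds ratio 2.14, 1.82 to 2.53, Fisher's exact adjusted p = 1.98e-19), with an odds ratio of 2.08 within GC strata. At gains on constant H3K27ac it was higher than at the gained sites, 28.6% (odds ratio 0.832, 0.719 to 0.962, Fisher's exact adjusted p = 0.0210), and 0.601 within GC strata also passed. That last difference was not past the threshold of the same exact test in 4 other settings, with adjusted p = 0.365 for the stronger 50% of each list (0.884) and adjusted p = 0.316 for windows centred on the overlap of the marks (0.917). It was also lost without H3K23su HCT15-FR replicate 1 (1.01), H3K23su HCT15-FR replicate 2 (0.989) or H3K27ac HCT15-Pa replicate 1 (0.891). Over all distal H3K23su regions the AP-1 share was 14.2%, and over constant regions 21.6%.

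FOX matches separated the gained sites from all 3 other kinds. They were found at 484 gained sites (15%), against 6.92% of lost sites (odds ratio 2.37, 1.82 to 3.08, Fisher's exact adjusted p = 7.04e-11), 8.84% of gains on constant H3K27ac (1.82, 1.46 to 2.26, adjusted p = 1.12e-07) and 10.4% of gains without H3K27ac (1.52, 1.26 to 1.84, adjusted p = 2.42e-05). Within GC strata the odds ratios were 1.91, 1.45 and 1.47, and all passed. With the stronger 50% of each list the odds ratio against gains without H3K27ac was 1.06, not past the threshold. Over all distal regions the share was 7.37%, and over constant regions 8.41%.

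GATA matches were found at 345 gained sites (10.7%), against 5.42%, 6.63% and 6.72% of lost sites, gains on constant H3K27ac and gains without H3K27ac (odds ratios 2.09, 1.68 and 1.66, Fisher's exact adjusted p = 1.02e-06, 4.92e-05 and 2.35e-05). Within GC strata only the comparison with gains without H3K27ac passed, at 1.57, and the others were 1.26 and 1.18. With the stronger 50% of each list only the comparison with lost sites passed (2.63, 1.51 and 1.25). Over all distal regions the share was 5.79%. TCF/LEF, the motif through which Wnt signalling acts, was found at 10.4% of gained sites, and CDX, the motif of the intestinal factors CDX1 and CDX2, at 11.9%. Both were more frequent than at any of the 3 other kinds in the unstratified tests, with odds ratios from 1.54 to 2.67. Within GC strata both passed only against gains without H3K27ac (1.62 and 1.49), and CDX was at 0.931 against gains on constant H3K27ac. With the stronger 50% of each list TCF/LEF passed in none of the 3 comparisons (1.53, 1.31 and 1.36), and CDX passed only against lost sites (2.30), with 1.10 against gains on constant H3K27ac and 0.835 against gains without H3K27ac. RUNX was found at 11.3% of gained sites and was higher than at lost sites and at gains without H3K27ac (1.38 and 1.43), the second also within GC strata (1.38). The first did not pass within GC strata (1.07), over 5 kb from a TSS (1.33) or over 1 kb from any TSS (1.29), and the second passed neither with the stronger 50% of each list (1.07) nor without H3K27ac HCT15-FR replicate 2 (1.19). Against gains on constant H3K27ac RUNX did not pass (1.23), but it did without any 1 of the 4 H3K23su libraries (1.21 to 1.36) and without replicate 1 of H3K27ac in either line (1.32 both times).

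KLF, the motif GGGNGTGG of the Krüppel-like factors, was less frequent at gained sites, 13.5%, than at lost sites (19.3%), gains on constant H3K27ac (21.9%) and gains without H3K27ac (16.2%). The odds ratios were 0.654, 0.557 and 0.807 (Fisher's exact adjusted p = 3.39e-05, 1.37e-10 and 0.0210). None passed within GC strata, where they were 1.24, 0.908 and 0.886 and the first changed direction. TEAD, the partner of YAP, was found at 25.2% of gained sites and 30.9% of lost sites (odds ratio 0.754, 0.645 to 0.882, Fisher's exact adjusted p = 9.17e-04), with 0.668 within GC strata, past the threshold. It was 0.830 with the stronger 50% of each list, not past it. TEAD did not pass against the other kinds (1.03, 0.884 to 1.19, and 1.06, 0.921 to 1.22). CTCF was lower than at lost sites and at gains on constant H3K27ac (0.594 and 0.539), and neither difference passed within GC strata. HNF4, HNF1 and CRE each matched at most 1.52% of gained sites. HNF4 exceeded the lost sites (3.05, 1.21 to 7.69, Fisher's exact adjusted p = 0.0158) and CRE was below gains on constant H3K27ac (0.303, 0.113 to 0.816, adjusted p = 0.0313), and within GC strata neither passed. The HNF4 difference did not pass without H3K23su HCT15-FR replicate 1 (2.1) or 2 (2.04), nor the CRE difference without H3K23su HCT15-FR replicate 1 (0.430) or H3K27ac HCT15-Pa replicate 1 (0.356) or 2 (0.357). The KLF difference from gains without H3K27ac did not pass without H3K27ac HCT15-FR replicate 1 (0.883), and TEAD passed against those gains without H3K23su HCT15-FR replicate 1 (1.25) or 2 (1.24). HNF1 passed in none of these comparisons and was lower than at lost sites within GC strata (0.332). Over all distal regions the shares were 5.53% for TCF/LEF, 6.07% for CDX, 8.12% for RUNX, 18.0% for KLF and 23.2% for TEAD.

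**Figure D2:**
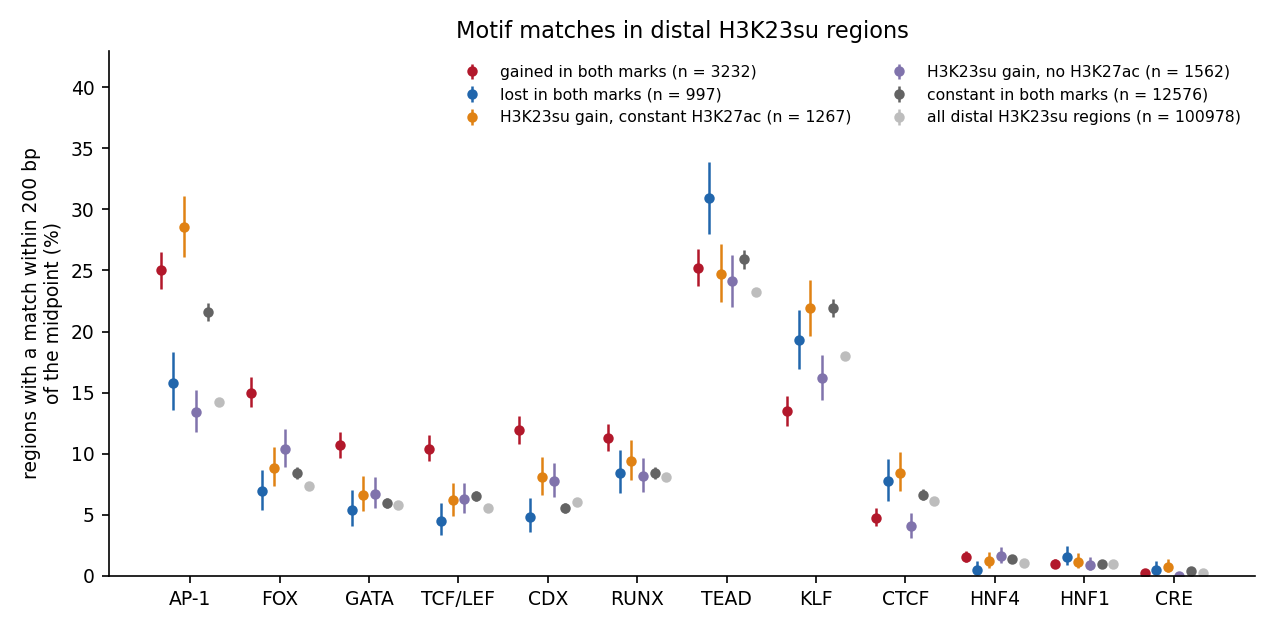
Share of regions with at least 1 exact match within 200 bp of the midpoint (vertical axis, percent) for 12 motifs, in the gained sites and 5 other sets of distal H3K23su regions. Points are shares and bars exact 95% intervals over regions. For AP-1 the gained sites are at 25% and all distal regions at 14.2%, and for FOX they are at 15% and 7.37%.

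The matches gathered at the middle of the gained sites. AP-1 occurred 7.0 times per 10 kb of sequence within 200 bp of the midpoint and 1.71 times between 500 and 1000 bp from it, a ratio of 4.08. The ratio was 2.57 for FOX, 1.90 for GATA and 1.18 for KLF. At lost sites it was 2.20, 1.35, 1.02 and 1.49. For AP-1 the ratio at gains on constant H3K27ac was 4.46, above that of the gained sites. Centred on the H3K27ac region instead, the gained sites had ratios of 4.52 for AP-1, 2.71 for FOX and 2.14 for GATA.

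**Figure D3:**
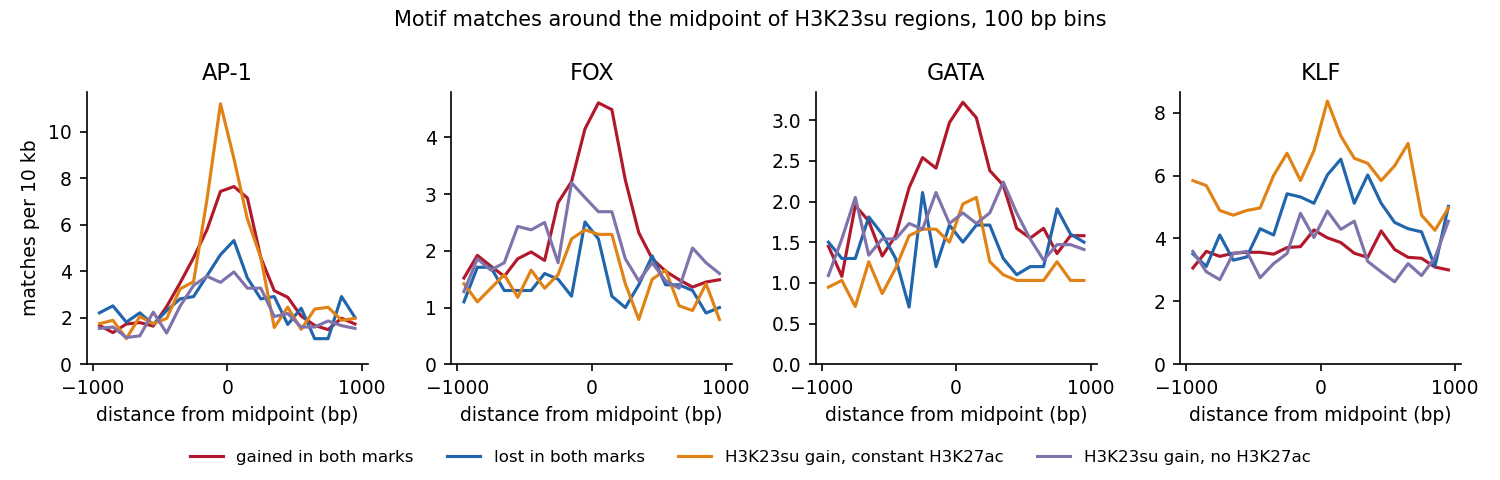
Matches per 10 kb of sequence (vertical axes, one scale per panel, starting at 0) in bins of 100 bp by distance from the midpoint of the H3K23su region, for AP-1, FOX, GATA and KLF. In the gained sites (red) AP-1 reaches 7.64 and FOX 4.61 per 10 kb in the bin from 0 to 100 bp, while KLF stays between 3.0 and 4.27.

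The motifs did not keep to the same sites or to the strongest ones. FOX was found at 14% of gained sites with AP-1 (113 of 807) and at 15.3% of those without it (371 of 2425), and GATA at 9.29% and 11.1%. With the sites cut by their weakest percentile into 4 equal groups of 808, the AP-1 share was 23.6%, 26.0%, 24.5% and 25.7% from the weakest to the strongest group, with overlapping intervals. The FOX shares were 14%, 14.6%, 16.5% and 14.9%. Intronic sites had AP-1 at 23.5%, sites between genes at 26.9% and sites in noncoding genes at 28.8%. On the acetylation side, AP-1 was found within 200 bp of the midpoint at 26.9% of the 3195 distal FR-only H3K27ac regions that overlap a gained site (25.3 to 28.4%). It was found at 23.2% (21.7 to 24.7%) of 2959 other distal FR-only H3K27ac regions with no H3K23su peak in any library. FOX was found at 16.1% and 11.8% of these sets and GATA at 11.5% and 8.72%, and the median H3K27ac score in HCT15-FR replicate 1 was 4.97 and 4.06. A further 4963 distal FR-only H3K27ac regions overlapped no gained site but had an H3K23su peak in some library. Of these, 24.3% held AP-1 (23.1 to 25.5%), an interval that just overlaps that of the regions at gained sites, which does not decide whether the shares differ. FOX was found at 12.9% of them, GATA at 8.60% and TCF/LEF at 10.7%, against 10.6% for TCF/LEF at the gained sites, and their median score was 4.43. These sets were added after the data were seen and were not tested.

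The same motifs were counted in each library as a whole, which the selection of sites does not enter directly. AP-1 was held by 14.4% and 14.5% of distal H3K23su peaks in HCT15-Pa and by 18.0% and 18.2% in HCT15-FR. For H3K27ac the shares were 16.0% and 16.6% against 19.9% and 19.8%. The HCT15-FR libraries were above the HCT15-Pa libraries in both marks with no overlap, by 3.67 percentage points for H3K23su (18.1% ± 0.131 against 14.4% ± 0.0777, SD, n = 2) and by 3.53 for H3K27ac (19.9% ± 0.0417 against 16.3% ± 0.410). The two-sided exact permutation test gave p = 0.333 for both, the smallest that 2 libraries against 2 allow. The FOX share was higher in HCT15-FR by 1.97 and 2.24 percentage points and that of GATA by 1.15 and 1.53, and the difference for KLF was -0.709 and -1.64, again with no overlap between lines and p = 0.333 in the exact permutation test. These peaks include the gained sites, so the shares are not independent of them. They were not stratified by GC content.

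**Figure D4:**
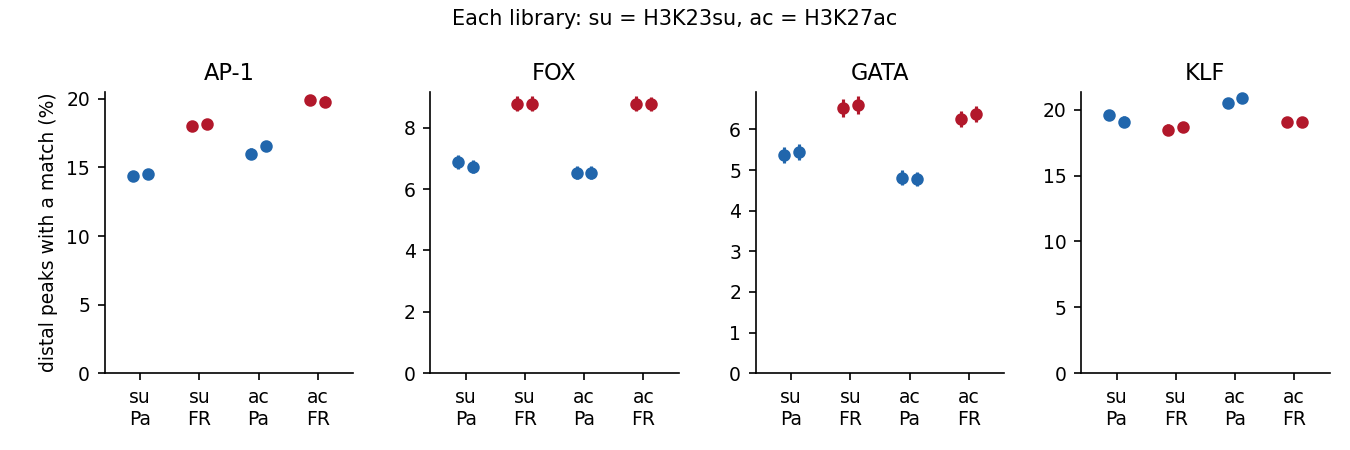
Share of distal peaks with a motif within 200 bp of the midpoint (vertical axes, percent, starting at 0) in each of the 8 libraries, for H3K23su (su) and H3K27ac (ac) in HCT15-Pa (blue) and HCT15-FR (red). Each point is 1 library with its exact 95% interval over peaks. AP-1 lies at 14.4 to 16.6% in HCT15-Pa and 18.0 to 19.9% in HCT15-FR.

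Next the gained sites were placed beside genes. Of the 3232 sites, 2740 lay within 100 kb of a protein-coding TSS and were assigned to the nearest, which gave 2116 genes. Of these, 1686 had 1 site, 311 had 2 and 119 had 3 or more. The promoters of these genes were mostly marked in both lines already. An H3K27ac peak lay within 1 kb of a TSS in all 4 libraries at 77.4% of them (75.5 to 79.1%), against 62.1% of all 20162 protein-coding genes, and H3K23su peaks lay there in all 4 libraries at 73.5% against 57.6%. An FR-only H3K27ac promoter was found at 1.70% (36 genes) against 1.41% of all genes, and an FR-only H3K23su promoter at 2.84% (60 genes) against 1.66%. Promoter peaks in the HCT15-Pa lists only were about as common for H3K27ac, at 1.80% (38 genes) against 2.07% of all genes. For H3K23su they were found at 0.898% (19 genes) against 1.59%. At genes nearest to a lost site the FR-only shares were 0.432% for H3K27ac and 1.59% for H3K23su, and the shares in HCT15-Pa only were 6.34% and 3.89%. None of these shares was tested.

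The 20 genes with the most gained sites had 111 of them, 87 inside the gene itself, and 16 of the 20 had H3K27ac at a promoter in all 4 libraries. They are long, with a median length of 270 kb against 27.2 kb for all protein-coding genes, and the part of gene length in these counts was not tested. SIK3, a salt-inducible kinase that restrains CREB coactivators, had 9 sites, all in introns, 3.26 to 62.7 kb from a start site. FOXN3, a forkhead repressor, had 7 in its introns, and 3 of these held a FOX match. ADGRF1, an adhesion G protein-coupled receptor, had 7, and its promoter carried each mark in 1 HCT15-FR library and in no HCT15-Pa library. SYNE1, which ties the nucleus to the cytoskeleton, PDE4D, a phosphodiesterase that breaks down cAMP, and LPP, an adhesion protein, had 6 each. FILIP1L, SYTL2, AAK1, CCDC192, MTMR2, HAS2, DST, KCNMA1, CACNA1C, PLCH1 and MCU had 5 each, and CDH2 and SHROOM3 had 4. HAS2, which makes hyaluronan, had its 5 sites 38.7 to 81.2 kb away while its promoter had an H3K27ac peak in HCT15-Pa only. Only KCNMA1 and CACNA1C of the 20 also had a lost site nearest to them.

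At SIK3 (ENSG00000160584, chr11:116714118-116969153, minus strand) the strongest site was chr11:116722811-116723422. Its H3K23su scores were 8.99 and 7.69 and its H3K27ac scores 6.03 and 7.46 in HCT15-FR replicates 1 and 2, and its weakest percentile was 66.9. The weakest was chr11:116960656-116961038, 8.14 kb from a start site, with scores of 4.10, 3.6, 3.56 and 4.49. Between them lie the sites at chr11:116873181-116873874 and chr11:116874241-116874582, which share 1 H3K27ac region, with H3K27ac scores of 3.88 and 5.74. Of the 9 sites, 2 held AP-1 and 2 held FOX.

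The genes discussed by the study were described next, whatever their values. Of 18, 10 had a gained site within 100 kb of a start site (55.6%, 30.8 to 78.5%), against 26.9% of all protein-coding genes. The study chose these genes on the same lines, so their count is no independent evidence. A lost site lay within 100 kb of 3 of the 18, against 8.94% of all genes. PARM1, SLC22A31, FLT1, RASGRP3, MYC, FOSL2, KLF6 and RUNX2 had no gained site there.

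FOXO1 (ENSG00000150907), a forkhead factor held back by AKT, had 4 gained sites, 2 of them in its introns. The site printed above, chr13:41159151-41160543, lies in its intron 22.9 kb from a start site and was the strongest of the group, with H3K23su scores of 6.51 and 6.43 and H3K27ac scores of 6.83 and 9.49. FOXP1, a forkhead repressor, had 4 in its introns. The one with the highest weakest percentile, chr3:71581307-71582367, had scores of 4.30, 4.37, 5.17 and 6.26 in the same order. Another, chr3:71202258-71203073, had scores of 4.88, 4.10, 5.63 and 9.21. None of the 8 sites held a FOX or AP-1 match. FOXA1, a pioneer forkhead factor of gut epithelium, had 3 sites 23 to 34.7 kb away, within 12003 bp of each other in an intron of the neighbouring MIPOL1. The strongest of them, chr14:38040266-38040664, had H3K23su scores of 5.04 and 7.25 and H3K27ac scores of 7.09 and 7.81.

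MET, the receptor for hepatocyte growth factor, had 4 gained sites. The strongest, chr7:116443810-116444237, lay 34.3 kb from its nearest start site, downstream of the gene and closer to CAPZA2, with scores of 5.59, 6.46, 4.77 and 8.29. The 1 in a MET intron, chr7:116402464-116402933, was weak, with scores of 3.49, 3.44, 4.87 and 4.71. EGFR, the receptor for epidermal growth factor, had 1 in an intron at chr7:55195319-55195736, with H3K23su scores of 5.96 and 3.26 and H3K27ac scores of 3.29 and 4.31. Its lowest percentile was 2.89, so it lay close to the calling threshold. LOXL4, a lysyl oxidase that crosslinks collagen, had 3 sites, 1 in its intron at 1.79 kb and 2 between genes at 46.8 and 64.8 kb. Its promoter was FR-only in both marks, the only one of the 18 of which that held.

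SEMA3C, a secreted semaphorin, had 1 site in an intron at chr7:80410740-80411139, with scores of 5.73, 4.15, 4.11 and 3.79. RAMP1, a partner of the calcitonin receptor-like receptor, had the AP-1 site printed above at chr2:238775057-238775301, 6.56 kb from a start site, with scores of 3.84, 4.40, 3.73 and 5.75, while its H3K23su promoter peak was FR-only and its H3K27ac promoter peak was in all 4 libraries. IL33, an alarmin cytokine, had 1 site 17.5 kb away with a FOX match, and no promoter peak of either mark in any library. MITF, a basic helix-loop-helix factor, had 2, at 9.19 and 74.1 kb.

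Genes of 9 other lists were counted in the same way, with no test of a list, beside 26.9% for all protein-coding genes with a gained site within 100 kb and 8.94% with a lost one. Of 24 intestinal and epithelial identity factors, 11 (45.8%, 25.6 to 67.2%) had a gained site and 7 (29.2%) a lost one. GATA6, a pioneer factor of endoderm, had 3 gained sites, the nearest in its intron 8.42 kb from a start site, and at its promoter the H3K23su peak was FR-only and the H3K27ac peak was in all 4 libraries. CDX1 had 1 gained site and a promoter with FR-only peaks of both marks. Of 26 Wnt targets and regulators, 11 (42.3%, 23.4 to 63.1%) had a gained site and 4 (15.4%) a lost one. ZNRF3, a ubiquitin ligase that removes Wnt receptors, had 3, 2 of them with AP-1. AXIN2, LGR5, TCF7L2, LEF1 and SOX9 had 1 each. ZNRF3 and AXIN2 each had 1 lost site within 100 kb as well.

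Of 19 YAP-TEAD factors and targets, 7 (36.8%) had a gained site and 2 (10.5%) a lost one, with 3 gained sites in the introns of WWTR1, the YAP paralog TAZ. By weakest percentile (63.0) the strongest was chr3:149395851-149396482, with H3K23su scores of 5.12 and 5.11 and H3K27ac scores of 6.80 and 9.33. Another, chr3:149265886-149266474, had a weakest percentile of 58.5 and scores of 7.41, 4.91, 10.4 and 9.86 in the same order. Of 22 enzymes of 5-FU and pyrimidine metabolism, 7 (31.8%) had a gained site and 3 (13.6%) a lost one. Those with a gained site included UMPS, which activates 5-FU, and RRM2, a subunit of ribonucleotide reductase, both with 1 site and with promoters marked in all 4 libraries of each mark. TYMS, the target of 5-FU, and DPYD, which degrades it, had none. Of 19 ERBB and MET receptors and ligands, 6 (31.6%) had a gained site, MET with 4 and EGFR, EREG, EPGN, TGFA and ERRFI1 with 1 each, and 3 (15.8%) had a lost one, MET, TGFA and AREG with 1 each. Of 27 genes of epithelial-mesenchymal transition and matrix, 8 (29.6%) had a gained site and 5 (18.5%) a lost one.

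CDH2, the N-cadherin gained in that transition, had 4 sites although its promoter had no peak of either mark in any library. Its strongest site, chr18:25501417-25502511, in a noncoding gene 43.8 kb from a CDH2 start site, had H3K23su scores of 9.24 and 7.06 and H3K27ac scores of 10.8 and 11.9, which place it among the 12 strongest gained sites. ITGA6, a laminin receptor subunit, had 3 sites, 18.7 to 87.8 kb away. Of 17 AP-1 factors, 5 (29.4%) had a gained site, JUN, JUNB, JUND, ATF3 and JDP2 with 1 each, and none a lost one. Of 28 RAS-MAPK feedback and exchange factors, 8 (28.6%) had a gained site and 1 (3.57%), DUSP6, a lost one, with 3 gained sites at ETV5, a target of the pathway, and 2 each at DUSP6, DUSP7, SPRED1 and PHLDA1. Of 20 genes of semaphorin and VEGF signalling, 5 (25%) had a gained site and 5 a lost one. NRP1, the receptor both pathways share, had 4 and FLT4 3, the strongest of the latter at chr5:180022240-180024151 with scores of 6.15, 5.99, 9.04 and 10.8. At its promoter an H3K27ac peak was found in HCT15-Pa only.

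The 12 sites whose weakest percentile was highest ran from 85.2 to 94.3. The first, in an intron of ABI2, an actin regulator, at chr2:204217492-204217871, had H3K23su scores of 11.2 and 9.21 and H3K27ac scores of 14 and 14.7. The second, in an intron of TSPEAR at chr21:45936740-45937763, had scores of 10.4, 8.51, 15.9 and 21.3, and the NBPF3 site at chr1:21791404-21792167 had 10.4, 10.3, 12.4 and 15.8. The sites in ACSF2 (chr17:48525075-48525725) and MIER1 (chr1:67399993-67400417) followed. Among the rest of the 12 were the CDH2 site, sites nearest to SBSPON, MBIP, CDCA7, ROCK2 and RALA and 1 in an intron of SHROOM3, an organiser of apical actin. The ROCK2 site (chr2:11494533-11495441) held GATA, the RALA site 2 FOX matches and the CDCA7 site 1. At these sites the peaks of all 4 HCT15-FR lists stood farthest above the threshold at which peaks were called.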

How the data were processed

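H3K23su and H3K27ac were profiled by CUT&Tag in 8 HCT15 libraries. After quality control by FastQC 0.11.6, the authors mapped the reads on hg19 by Bowtie2, removed duplicates with SAMtools and called peaks in each library with MACS2 2.1.2, in broad mode for H3K27ac. The deposited lists hold positions and a −log10 P value for each peak, and no counts. Spike-in DNA is named in the protocol, and no scaling by it was used here.

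Protein-coding TSSs (all transcripts), exons and introns came from GENCODE release 44 on GRCh37. A site took the score of its highest peak in each list. Motifs were exact strings on both strands. They were TGACTCA for AP-1, TGACGTCA for CRE, TGTTTAC for FOX, GGGNGTGG for KLF, GGAATG for TEAD and AACCACA for RUNX. The others were AGATAAG, the site of GATA factors, ATCAAAG for TCF/LEF, CAAAGTCCA for HNF4, GTTAATNAT for HNF1, GNNATAAAA for CDX and CTNGTGGC for CTCF. Matches of TCF/LEF and HNF4 can overlap in CAAAG. Before an odds ratio with an empty cell was taken, 0.5 was added to all cells. Odds ratios have Wald 95% intervals and shares exact (Clopper-Pearson) ones, for counting error only. GC strata used the Mantel-Haenszel test.

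Genes were named when the study discusses them, when they were among the 20 with the most gained sites (nearest TSS within 100 kb), or when a list gene had at least 3 within 100 kb. List genes with fewer were named after their values were seen. Named sites were the 12 with the highest weakest percentile and the strongest at each gene of the study. Printed windows overlap no protein-coding exon. Some genes and sequences that these rules select are not reported here. The members and lists were chosen with earlier results of these data known. Python 3.11.15 was used with pandas 2.3.3, numpy 2.4.6, scipy 1.17.1, pysam 0.24.0 and matplotlib 3.10.9, and the steps were tested on simulated data. Alternatives changed merging, peak thresholds, overlap, TSS distance and set, chromosomes, motif and gene windows and GC strata, and left out each library in turn.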

Additional observations from a re-analysis of the deposited data

How the results depend on the processing

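The number of gained sites was 1198 with the stronger 50% of each list, and between 3652 and 4528 without any 1 library, where fewer lists have to satisfy the rule. Against H3K23su gains on constant H3K27ac, the AP-1 odds ratio was 0.884 with the stronger 50% of each list, 0.861 with 50% of the region covered, 0.849 over 5 kb from a TSS and 0.917 with the window centred on the overlap, none past the threshold (adjusted p from 0.0712 to 0.365). It ran from 0.789 to 1.01 without 1 library, reversed at 1.01 without H3K23su HCT15-FR replicate 1, and past the threshold neither there nor without H3K23su HCT15-FR replicate 2 (0.989) or H3K27ac HCT15-Pa replicate 1 (0.891), and the cause was not tested. The other AP-1 comparisons kept their direction and side of the threshold in every alternative run, from 1.65 to 2.11 against lost sites and from 1.78 to 2.78 against gains without H3K27ac without 1 library, as did the intron share against lost sites (1.54 to 2.13). Of 623 values of the other motifs and intron comparisons under alternatives, 538 kept both, 42 fell below the threshold, 14 rose above it and 29 changed direction. With the stronger 50% of each list these were KLF (1.01), CDX (0.835), CRE (0.223), HNF4 (1.35) and CTCF (0.868) against gains without H3K27ac and TEAD (0.862) against gains on constant H3K27ac. Within GC strata they were KLF against lost sites (1.24), CDX (0.931), TEAD (0.915) and RUNX (0.933) against gains on constant H3K27ac, and HNF1 (0.971) against gains without H3K27ac. HNF1 against gains without H3K27ac was also 0.848 with peaks within 500 bp merged, 0.829 over 5 kb from a TSS and 0.759 in a window of 100 bp, where HNF4 was 1.36, and TEAD against gains on constant H3K27ac was 0.998 over 1 kb from any TSS. Without 1 library, HNF4 (0.945 to 1.52), HNF1 (0.875 to 1.26), CTCF (0.986 to 1.26) and TEAD (0.988 to 1.25) crossed 1 against gains without H3K27ac, TEAD (0.947 to 1.06) and HNF1 (0.664 to 1.31) against gains on constant H3K27ac, and HNF1 against lost sites (0.583 to 1.30). KLF and CDX had passed as reported and HNF4 passed without H3K23su HCT15-FR replicate 1 (1.49) or 2 (1.52), and the other changes of direction were between values that did not pass in either setting. CRE against gains without H3K27ac gave no value within GC strata. The share of all protein-coding genes near a gained site was 16.5% with a 50 kb window and 10.5% by nearest TSS. In a replicate block, with libraries paired by number, the AP-1 difference between lines was 3.67 percentage points for H3K23su and 3.53 for H3K27ac, with an exact sign-flip p of 0.5, the smallest that 2 pairs allow. Without 1 library it ran from 3.58 to 3.77 and from 3.24 to 3.82, a value with no test. The lists hold no read depth and library depths were not used here, so how depth limits a missing peak was not tested.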
